A study of Caenorhabditis elegans with 9 samples.

Results

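The comparison described here set worms that make extra SUMO under the aex-3 promoter against wild-type worms. It covers 6 of the 9 Caenorhabditis elegans arrays of the series. The transgenic animals carry the transgene aex-3::his-SUMO-1 (strain JS62, 3 arrays, called aex-3 SUMO below). They are set against N2, the standard laboratory wild type (3 arrays). The remaining 3 arrays hold a second line, myo-4::his-SUMO-1 (strain JS63, called myo-4 SUMO). They enter the fit only to estimate the spread between arrays and are compared with aex-3 SUMO at the end. All groups are labelled as whole bodies of first-stage (L1) larvae, synchronised by bleaching and fed OP50 bacteria. Each array stands for 1 biological replicate population, so p-values refer to the variation among 3 populations a group. The labels give 1 strain for the transgene and do not describe the extent of its expression. Whole animals were used, so a change in any tissue, however far from the promoter's own cells, contributes to the same signal.

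SUMO is a small protein that is attached to lysines of other proteins, many of them nuclear, by an enzyme cascade and removed by SUMO proteases. It is known in the worm for roles in transcriptional repression, germ line development and chromosome segregation. aex-3 encodes a regulator of the Rab3 GTPase at synapses, and its promoter is used to express transgenes throughout the nervous system. The germ line of the worm makes eggs and sperm and carries a set of transcripts for meiosis, yolk uptake and maternal supply that somatic tissues largely lack. In RNA from whole animals, fewer cells of a type and less RNA per cell cannot be told apart.

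The smo-1 probe set, for the worm's SUMO, read 957.3, 1078 and 1018 on the aex-3 SUMO arrays, against 715.1, 687.1 and 511.7 on the N2 arrays. Every aex-3 SUMO value lay above every N2 value, and the log2 fold change was 0.69 ± 0.13 (SE, limma adjusted p = 0.00117). The sequences of the construct and of the probes were not at hand, so signal from the transgene and from the worm's own smo-1 cannot be separated. aex-3 itself was dim, at 14.38, 14.74 and 12.94 in aex-3 SUMO, against 1.923, 31.4 and 28 in N2. The groups overlapped because of N2 replicate 1, and the change of 0.05 ± 0.63 did not pass (limma adjusted p = 0.957). Without N2 replicate 1 it was -1.0 (limma adjusted p = 0.00326).

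That array stood apart more widely. N2 replicate 1 lay at 36.91 on the second principal component, against -14.79 and -17.88 for the other N2 arrays. The median SD of the log2 values was 0.127 over the aex-3 SUMO arrays, against 0.231 over the N2 arrays and 0.159 over the other two N2 arrays. The stage label also needs care. The oocyte and eggshell genes, which first-stage larvae are not expected to transcribe strongly, had a median percentile rank among all probe sets of 93.7 to 94.7 on the aex-3 SUMO arrays, against 89.9 to 93.1 on those of N2. Sperm genes ranked at a median of 88.9 to 90.1 in aex-3 SUMO, against 88.9 to 91.2 in N2. Control probe sets at the 3' and 5' ends of 5 transcripts, a sign of RNA integrity, gave a mean log2 ratio of 0.268 to 0.292 in aex-3 SUMO, against 0.285 to 0.525 in N2. The single controls disagreed. The actin ratio was 0.479 to 0.596 in aex-3 SUMO, against 0.087 to 0.457 in N2. That of gly14 was -1.712 to -1.422 in aex-3 SUMO, against -1.363 to -0.508 in N2. The groups overlapped for Gapdh, ubiquitin and catalase.

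A large share of the measured transcriptome differed between the groups. Of 14204 probe sets bright enough to test, 6833 (48.1%) passed an adjusted p of 0.05 in limma, and 3423 were higher and 3410 lower in aex-3 SUMO. With 1 probe set kept for each of 10768 genes, 2653 genes (24.6%) rose and 2655 (24.7%) fell. All aex-3 SUMO arrays lay above all N2 arrays for 28% of the genes and below them for 29.8%. The larger changes leaned downward. A change of at least 2-fold was reached by 335 genes that rose and 739 genes that fell. The median absolute log2 change over all tested probe sets was 0.405 and the median SE 0.16.

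The direction depended on how bright a gene was. When genes were ranked by mean signal over all arrays and cut into 10 deciles, 4.28% of the dimmest decile rose and 17.5% fell, with a median change of -0.25. In decile 8, with mean signals of 166 to 253, 46.1% rose and 15.1% fell, and the median was 0.29. In the brightest decile 26.6% rose and 29.2% fell. The array medians were 23.19 to 24.56 in aex-3 SUMO, against 27.57 to 28.62 in N2. Centring every array on its own median therefore moved the median change of all genes to 0.175, against -0.04 with the deposited scaling. Under that centring 36.5% of genes rose and 15% fell. Counts below use the deposited scaling, and centred counts are given beside many of them.

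**Figure D1:**
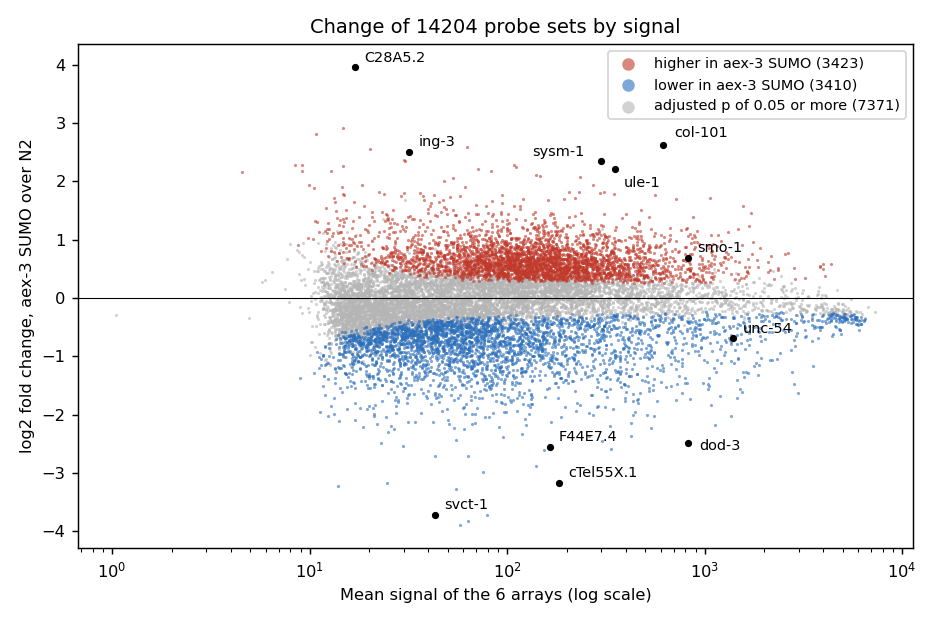
Log2 fold change of aex-3 SUMO over N2 (vertical axis) by the mean signal of the 6 arrays (horizontal, log scale) for 14204 probe sets, with red for 3423 higher in aex-3 SUMO, blue for 3410 lower and grey for the rest. Labelled points are genes described in the text; the dim side of the plot holds more blue than red, and C28A5.2 (3.96) and svct-1 (-3.72) lie near the ends.

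Among bright genes, those with a mean of at least 100 in both groups, the highest changes belonged to a mixed set of genes. col-101, a cuticle collagen, read 1035, 958.9 and 1134 in aex-3 SUMO, against 81.2, 331.9 and 172 in N2, a log2 fold change of 2.63 ± 0.34 (limma adjusted p = 0.000105). The N2 values spread widely, and a gene entered this set only if its groups did not overlap. sysm-1 and ule-1, the second named for its expression in the uterine lumen, rose by 2.35 ± 0.26 and 2.21 ± 0.21. The uncharacterised genes T05E12.6, T13F3.6 and F46F2.3 rose by 1.93, 1.80 and 1.79. ech-7, an enoyl-CoA hydratase of the beta-oxidation family, rose by 1.82 ± 0.19. folt-2, of the folate transporter family, rose by 1.77 ± 0.36, with 873.4, 806.4 and 806.7 in aex-3 SUMO, against 224.6, 527.6 and 118.1 in N2.

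Genes with the smallest p among those that rose included dimmer ones. C28A5.2 read 35.3, 31.41 and 33.71 in aex-3 SUMO and was near the bottom of the scale in N2, at 0.3069, 1.495 and 0.2644. Its fitted change of 3.96 ± 0.28 depends on the pseudocount of 1.623 and is no measure of a true fold. ing-3, of the inhibitor-of-growth family of chromatin proteins, read 41.84, 56.63 and 68.69 in aex-3 SUMO, against 7.878, 9.445 and 7.444 in N2, a change of 2.51 ± 0.20. dvc-1, the worm relative of the protease Spartan that acts at DNA-protein crosslinks, read 208, 239.2 and 221.3 in aex-3 SUMO, against 95.03, 93.91 and 90.72 in N2. Its change was 1.24 ± 0.11 (limma adjusted p = 1.02e-05).

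The genes that fell most among bright ones were led by dod-3, a gene named for acting downstream of the FOXO factor DAF-16. It read 311.2, 273.3 and 158.2 in aex-3 SUMO, against 1195, 1003 and 2025 in N2, a change of -2.49 ± 0.29 (limma adjusted p = 5.45e-05). Other members of this set were the lysosomal lipase family gene lipl-2 (-2.23), the fatty acid and retinol binding protein gene far-7 (-2.02), and scl-2 (-2.03), of a family of secreted cysteine-rich proteins. txt-4 changed by -2.17, and the uncharacterised T12D8.5, ZC395.5 and C32F10.4 by -2.37, -2.19 and -2.03. These 8 genes were picked only among genes whose groups did not overlap, so their separation is a condition of the choice and not a result.

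The smallest p of the whole comparison belonged to cTel55X.1, with 33.23, 39.56 and 33.65 in aex-3 SUMO, against 345.6, 314.2 and 335.3 in N2. Its change was -3.17 ± 0.12 (limma adjusted p = 1.26e-08). The collagen gene col-14 read 155, 199.9 and 164.1 in aex-3 SUMO, against 659.4, 695.7 and 724.9 in N2, a change of -2.0 ± 0.12. So one collagen, col-101, was among the genes that rose most and another among those that fell with the smallest p. The class leaned downward, since of 100 tested col genes 54 fell and 7 rose (median -0.63). This compares with 24.7% and 24.6% of all genes. After centring 45 col genes were lower and 12 higher. faah-1, the fatty acid amide hydrolase that breaks down N-acylethanolamines, fell by 1.74 on the log2 scale, and F44E7.4 and Y17D7B.4 changed by -2.55 and -1.77.

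Most called pan-neuronal genes were lower. Lists of single neuron classes were dimmer, and most of them had negative medians too. These were -0.31 for cholinergic, -0.42 for GABA, -0.33 for glutamate, -0.38 for touch receptor and -0.52 for cilium genes, but 0.12 for monoamine genes. Among all genes of the dimmest signal decile the median was -0.25. Of 40 tested pan-neuronal genes, 21 fell and 1 rose, and the median change was -0.42. The summed signal of the 43 genes on the array was 3764 to 4086 in aex-3 SUMO, against 5240 to 5536 in N2, and none was at the bottom of the scale on all 6 arrays. After centring on array medians 9 fell and 3 rose. The count of genes that fell dropped to 13 without aex-3 SUMO replicate 2 and also without replicate 3.

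The 4 pan-neuronal genes with the smallest p all belong to the making of neuropeptides in dense core vesicles. egl-3, the proprotein convertase that cuts neuropeptide precursors, read 167.3, 181.4 and 143.1 in aex-3 SUMO, against 483.7, 309 and 340.2 in N2, a change of -1.17 ± 0.18 (limma adjusted p = 0.000266). sbt-1, the convertase chaperone 7B2, read 247.3, 264.2 and 203.7 in aex-3 SUMO, against 443.4, 446.8 and 461.3 in N2. egl-21, the carboxypeptidase that trims the cut peptides, changed by -0.86 ± 0.12 and ida-1, a dense core vesicle membrane protein, by -0.79 ± 0.13. All 4 kept adjusted p-values under 0.05 after centring (egl-3 -0.96, sbt-1 -0.70, egl-21 -0.64 and ida-1 -0.57).

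Transcripts of single neuron classes were mostly too dim to show a change. Of 25 cholinergic genes on the array 11 could be tested, and 0 passed by limma in either direction, with 2 lower and 0 higher at an unadjusted p of 0.05. unc-17, the vesicular acetylcholine transporter, read 17.13, 14.98 and 17.13 in aex-3 SUMO, against 20.41, 29.13 and 20.4 in N2 (limma adjusted p = 0.0714). Without N2 replicate 1, 4 cholinergic genes passed as lower. Of 6 GABA genes 3 fell, the transporter snf-11, the receptor subunit unc-49 and the metabotropic receptor subunit gbb-2, by 0.46, 0.37 and 0.68, but none of the 6 passed after centring. Of 67 cilium and ciliated neuron genes on the array only 15 were tested. Of these 4 (26.7%) fell, near the 24.7% of all genes. The smallest p was that of the calcineurin subunit tax-6, at -0.83 ± 0.16, and the lowest change that of nphp-4, at -1.22 ± 0.46. The calls of the dimmer nphp-4, klp-11 and osm-10 were lost under centring.

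Touch receptor neuron genes went down in 5 of 11 cases and up in 1. mec-17, the tubulin acetyltransferase of these neurons, read 122.5, 137.4 and 125.5 in aex-3 SUMO, against 243.1, 216.7 and 190.4 in N2, a change of -0.74 ± 0.12. The list's higher member was mec-15, an F-box protein also found outside touch neurons, at 0.94 ± 0.12. Among monoamine genes 3 (30%) rose and 1 (10%) fell of 10 tested, against 24.6% and 24.7% of all genes. tbh-1 and tdc-1, which make octopamine and tyramine in a few neurons and in gonadal sheath cells, rose by 1.09 ± 0.13 and 1.08 ± 0.27. The serotonin receptor gene ser-4 fell by 1.36 on the log2 scale. The glutamate-gated chloride channel gene glc-1 was the only called member of 9 tested glutamate signalling genes, with 57.77, 52.01 and 48.13 in aex-3 SUMO, against 144.6, 85.04 and 165.3 in N2.

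The intestine, the worm's organ of digestion, fat storage and yolk synthesis, was the tissue list with the lowest median. Of 44 tested genes 29 fell and 4 rose, with a median of -0.66, and 25 fell and 5 rose after centring. The summed signal of its 45 genes was 45071 to 49192 in aex-3 SUMO, against 63351 to 71695 in N2. ifb-2, an intermediate filament of the terminal web under the gut's apical surface, read 1218, 1123 and 941.8 in aex-3 SUMO, against 2273, 2207 and 2912 in N2, a change of -1.17 ± 0.14 (limma adjusted p = 6.17e-05). Its partners ifc-2 and ifd-1 changed by -1.06 and -1.26. cpr-5, a cathepsin B-like gut protease, changed by -1.03 ± 0.11, and nuc-1, the lysosomal DNase II, by -1.12 ± 0.14.

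Lysosome, vacuolar ATPase and autophagy genes partly followed, with 23 of 66 lower and 5 higher. vha-6, the ATPase subunit of the gut's apical membrane, read 855.5, 894.7 and 782.7 in aex-3 SUMO, against 1533, 1482 and 2015 in N2. lgg-1, the worm's Atg8, changed by -0.83 ± 0.10 and sqst-1, its cargo receptor p62, by -1.31 ± 0.14. After centring the list was even, with 17 lower and 15 higher, while these 3 genes stayed lower, by 0.76, 0.61 and 1.09.

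The hypodermis and its seam cells, which secrete the cuticle, also gave lower values. Of 48 tested genes 24 fell and 2 rose (median -0.45), and 18 fell and 6 rose after centring. rol-6, a cuticle collagen, read 115.4, 152.3 and 116.7 in aex-3 SUMO, against 389.4, 425.9 and 397.9 in N2, a change of -1.66 ± 0.15 (limma adjusted p = 1.23e-05). dpy-7, a collagen of the annular furrows, changed by -0.96 ± 0.12. dlg-1, the Discs large protein of epithelial junctions, changed by -1.04 ± 0.12, and the hedgehog-related gene wrt-4 by -1.53 ± 0.17. Genes of the excretory system, the worm's osmoregulatory cells, fell in 11 of 19 cases and rose in 1 (median -0.57), but only 2 passed as lower after centring. The count was 7 without N2 replicate 3 and 6 without aex-3 SUMO replicate 3.

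Body wall muscle changed less. Of 53 tested genes 16 (30.2%) fell and 4 (7.55%) rose, against 24.7% and 24.6% of all genes. The median was -0.26, and centring left 8 lower and 4 higher with a median of -0.04. unc-54, the main myosin heavy chain of body wall muscle and the gene also called myo-4, read 1071, 988.4 and 1123 in aex-3 SUMO, against 2179, 1368 and 1677 in N2, a change of -0.69 ± 0.17. The second heavy chain, myo-3, read 92.63, 91.48 and 93.57 in aex-3 SUMO, against 179.4, 138.5 and 169.3 in N2. sca-1, the sarcoplasmic calcium pump, and mlc-3, a myosin light chain, changed by -0.92 and -0.73. N2 replicate 1 weighed on this list, since 26 genes were lower without it. In the pharynx muscle list 2 of 10 fell and 1 rose, and of the 18 coelomocyte and endocytosis genes 4 rose and 2 fell.

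**Figure D2:**
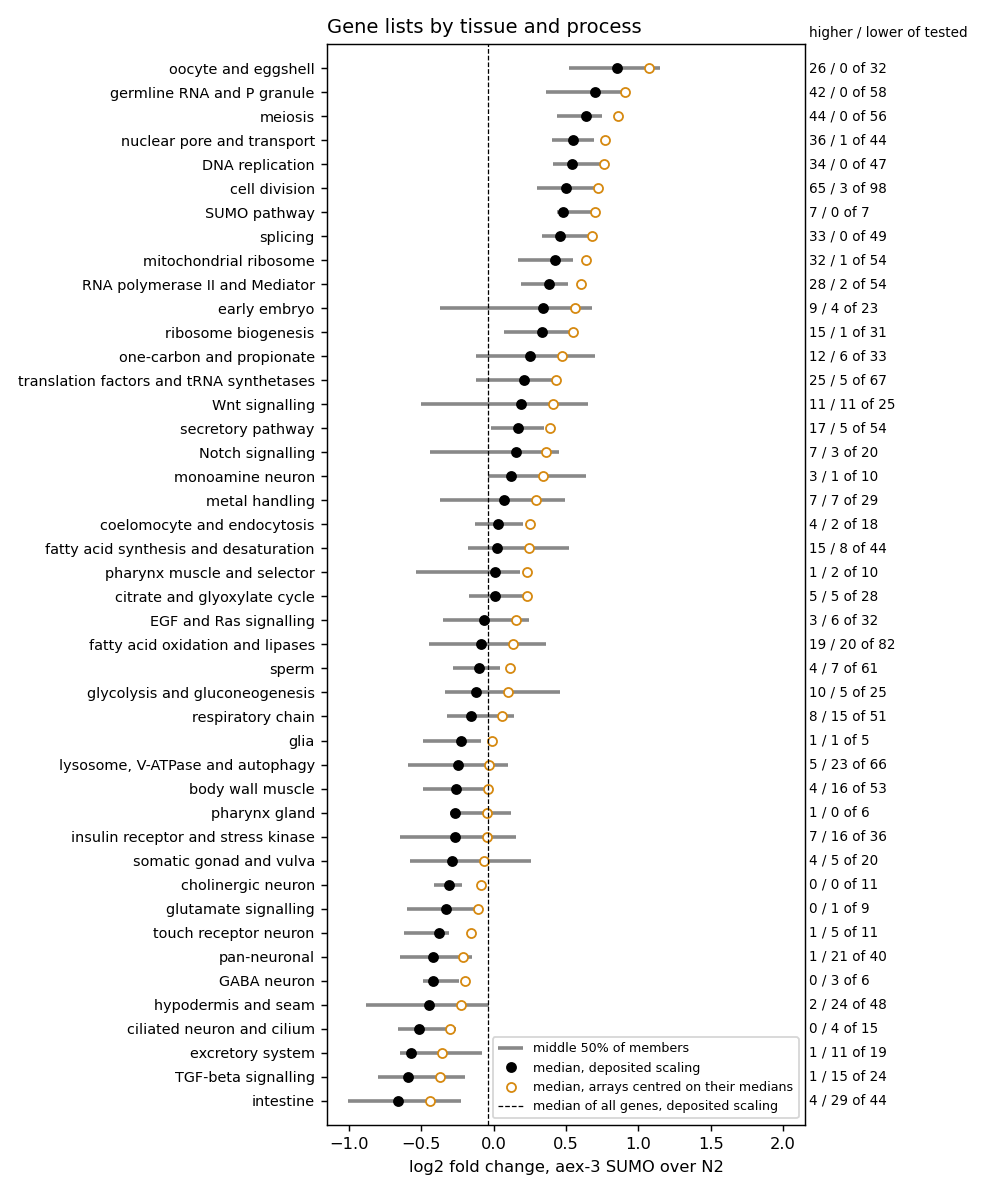
Median log2 fold change (filled points, deposited scaling; open points, arrays centred on their medians) and middle 50% of members (bars) for 44 lists of genes, with the numbers called higher and lower of those tested at the right. Oocyte, germline and meiosis lists stand at the top with medians of 0.85, 0.70 and 0.64, and intestine at the foot with -0.66; the dashed line is the median of all genes, -0.04.

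Genes of germ cells and oocytes rose. Of 58 tested genes for germline RNA control and P granules, the RNA-protein bodies of germ cells, 42 rose and 0 fell (median 0.70). Of 32 oocyte and eggshell genes 26 rose and 0 fell (median 0.85), and of 56 meiosis genes 44 rose and 0 fell (median 0.64). At an unadjusted p of 0.05 the number that fell by limma was still 0 in each of the 3 lists. The summed signals did not overlap between groups. They were 20566 to 22215 in aex-3 SUMO, against 11198 to 16839 in N2, for the germline RNA list. For the oocyte and eggshell list, which includes the yolk protein genes made in the gut, they were 39249 to 41649 in aex-3 SUMO, against 21880 to 29362 in N2.

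rme-2, the receptor by which oocytes take up yolk, read 1127, 961.3 and 1335 in aex-3 SUMO, against 498.6, 538.7 and 447.3 in N2, a change of 1.19 ± 0.12 (limma adjusted p = 3.32e-05). cpg-4, a chondroitin proteoglycan, and gna-2, an enzyme needed for the eggshell, rose by 1.17 and 1.14. nos-2, a Nanos-type repressor in germ cells, read 183.5, 201.9 and 174.7 in aex-3 SUMO, against 88.77, 69.24 and 72.23 in N2. The PUF repressor fbf-1 and the RNA-dependent RNA polymerase ego-1 rose by 0.99 and 1.0. Among meiosis genes, hal-2, which acts in homologue pairing, rose by 1.28 ± 0.12 and brc-2, the worm BRCA2, by 1.03 ± 0.12. The synaptonemal complex gene syp-1 rose by 0.80 ± 0.11. For each of these 9 genes all aex-3 SUMO arrays lay above all N2 arrays, as they did for 28% of all genes. The 9 were picked by the smallest p in their lists, so this separation largely follows from the choice.

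Sperm transcripts were bright too but gave few calls. Of 61 tested, 4 rose and 7 fell, with a median of -0.10 that turned to 0.11 after centring, where 8 rose and 1 fell. Their summed signal was 85958 to 95289 in aex-3 SUMO, against 90906 to 127000 in N2. Without N2 replicate 3, 14 fell. spe-39, which acts in sperm and in endosomal traffic elsewhere, rose by 0.65 ± 0.13, and swm-1, a secreted protease inhibitor that controls sperm activation, fell by 0.83. Embryo genes divided, with 9 higher (39.1%) and 4 lower (17.4%) of 23, against 24.6% and 24.7% of all genes. The caudal homologue pal-1, supplied by the mother, read 428.6, 385.7 and 454.7 in aex-3 SUMO, against 188.9, 209.1 and 207.8 in N2. sdz-24, a zygotic target of SKN-1, went the other way with 682, 840 and 544.7 in aex-3 SUMO, against 2189, 2096 and 2419 in N2. The part of germline content in the other lists that rose was not tested.

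**Figure D3:**
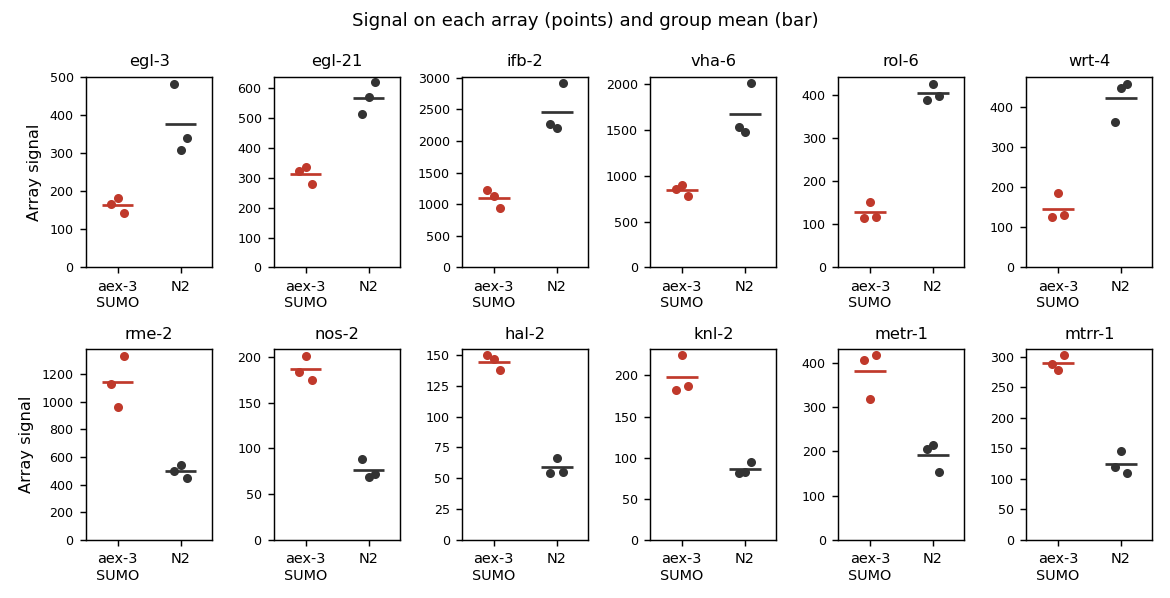
Array signal (linear, from 0) of 12 genes on each of the 3 aex-3 SUMO arrays (left, red) and the 3 N2 arrays (right, dark), with bars at the group means. In the upper row, neuropeptide, gut and cuticle genes sit lower in aex-3 SUMO. In the lower row, germline, kinetochore and methionine cycle genes sit higher. No gene's groups overlap, which largely follows from picking genes by smallest p in their lists.

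In the lists for DNA replication, cell division, nuclear pores and splicing most tested genes rose. For comparison, 43.1% and 46.1% of all genes in signal deciles 7 and 8 rose. In DNA replication 34 of 47 genes rose and 0 fell (median 0.54, 0 lower at an unadjusted p of 0.05). orc-4 and orc-5, subunits of the origin recognition complex, rose by 1.02 and 0.96, and the dUTPase dut-1 by 0.94. In cell division 65 of 98 rose and 3 fell. hcp-3, the centromeric histone CENP-A, read 367.8, 379.9 and 357.7 in aex-3 SUMO, against 213.4, 194 and 177.2 in N2. knl-2, which loads it, rose by 1.19 ± 0.14. The exception with the smallest p was cki-1, an inhibitor of cyclin-dependent kinases, with 79.07, 78.71 and 62.99 in aex-3 SUMO, against 167.3, 167.5 and 196.5 in N2, a change of -1.25 ± 0.13 (limma adjusted p = 3.91e-05).

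In the nuclear pore and transport list 36 of 44 genes rose and 1 fell (median 0.55). npp-2 and npp-5, nucleoporins, rose by 0.82 and 0.93. emr-1, the inner nuclear membrane protein emerin, rose by 1.06 ± 0.12 and lem-3 by 0.88 ± 0.13. In splicing 33 of 49 rose and 0 fell (median 0.46, 0 lower at an unadjusted p of 0.05), with snr-1, an Sm core protein, at 1005, 1057 and 1175 in aex-3 SUMO, against 575.8, 764.3 and 590.7 in N2. In RNA polymerase II and Mediator 28 of 54 (51.9%) rose and 2 fell, against 43.1% and 46.1% higher among all genes of signal deciles 7 and 8, and 18 rose without aex-3 SUMO replicate 3. The TATA-binding protein gene tbp-1 rose by 1.07 ± 0.19. All 7 SUMO pathway genes on the array rose, against 43.1% and 46.1% of all genes in signal deciles 7 and 8. They include smo-1, whose signal cannot be separated from that of the transgene. Others are the ligase gei-17 (0.48) and the proteases ulp-5 (0.72) and ulp-2 (0.47). Only 4 of the 7 rose without aex-3 SUMO replicate 1 or without replicate 3.

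Protein synthesis was less uniform. Genes of cytosolic ribosomal proteins leaned downward. Of 30 tested rps genes 18 fell and 0 rose (median -0.29), and of 44 rpl genes 25 fell and 0 rose (median -0.28). Among all genes of the brightest decile 26.6% rose and 29.2% fell. After centring, 0 rps and 2 rpl genes were lower, and 0 and 1 were higher. Ribosome biogenesis genes rose in 15 of 31 cases (48.4%) and fell in 1 (3.23%), and 9 rose without aex-3 SUMO replicate 3. Among all genes of signal deciles 7 and 8, 43.1% and 46.1% rose and 18.8% and 15.1% fell. nol-10 and utp-20, of the small-subunit processing machinery, rose by 0.98 and 0.96. Translation factors and tRNA synthetases rose in 25 of 67 cases (37.3%) and fell in 5 (7.46%), against 42.2% and 20.4% of all genes in signal decile 9. ifg-1, the scaffold eIF4G, had the largest change of those named from this list, with 147.3, 131.3 and 148.6 in aex-3 SUMO, against 29.98, 62.46 and 48.88 in N2 (1.62 ± 0.21). Mitochondrial ribosome genes rose in 32 of 54 cases (59.3%) and fell in 1 (1.85%), with mrps-22 at 0.93 and mrpl-34 at 0.85. Of all genes in signal deciles 8 and 9, 46.1% and 42.2% rose and 15.1% and 20.4% fell. Genes of the mitochondrial respiratory chain gave 8 higher (15.7%) and 15 lower (29.4%) of 51, against 26.6% and 29.2% in the brightest decile. This balance reversed to 15 higher and 1 lower after centring. The secretory pathway had 17 higher (31.5%) and 5 lower (9.26%) of 54, both below the 42.2% and 20.4% of signal decile 9. It had 35 higher and 2 lower after centring, and 9 or 10 higher without any 1 of the aex-3 SUMO arrays.

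In the one-carbon and propionate list 12 of 33 genes (36.4%) rose and 6 (18.2%) fell, with 18 higher and 3 lower after centring. Among all genes of signal decile 9, 42.2% rose and 20.4% fell. mtrr-1, the reductase that reactivates methionine synthase, read 289.1, 277.7 and 302.5 in aex-3 SUMO, against 118.9, 145.1 and 110.2 in N2, a change of 1.21 ± 0.12 (limma adjusted p = 2.57e-05). Methionine synthase itself, metr-1, rose by 0.99 ± 0.14 and mmaa-1, of the methylmalonyl-CoA mutase branch, by 0.86 ± 0.13. pmt-1, a methyltransferase that uses S-adenosylmethionine to make phosphocholine, was among those lower, with 1780, 1668 and 1378 in aex-3 SUMO, against 3812, 3362 and 4557 in N2 (-1.28 ± 0.13).

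Of the genes for fatty acid synthesis and desaturation, 15 were higher (34.1%) and 8 lower (18.2%) of 44, with 18 and 6 after centring. Among all genes of signal deciles 7 and 8, 43.1% and 46.1% were higher and 18.8% and 15.1% lower. fat-3, the delta-6 desaturase on the path to polyunsaturated fatty acids, read 1244, 1242 and 1038 in aex-3 SUMO, against 2368, 2404 and 3047 in N2 (-1.14 ± 0.13). fat-5, which desaturates palmitate, rose by 1.57 ± 0.23. Fatty acid oxidation and lipases had 19 higher (23.2%) and 20 lower (24.4%) of 82, close to the 24.6% and 24.7% of all genes, and 30 higher and 13 lower after centring. ech-7 at 1.82 and lipl-2 at -2.23 belong to this list. Of 25 genes of glycolysis and gluconeogenesis 10 (40%) rose, including the hexokinase hxk-1 (0.97) and gpi-1 (0.66). Another 5 (20%) fell, including the trehalose synthase tps-1 (-0.79). These shares were near the 42.2% and 20.4% of all genes in signal decile 9, and centring gave 12 higher and 1 lower. In the citrate and glyoxylate cycle 5 of 28 (17.9%) rose and 5 (17.9%) fell, below the 26.6% and 29.2% of the brightest decile. After centring 11 were higher and 2 lower. icl-1, the glyoxylate cycle enzyme that lets worms make sugar from fat, read 1098, 1286 and 1446 in aex-3 SUMO, against 2799, 2257 and 2205 in N2 (-0.92 ± 0.13).

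Among signalling lists, TGF-beta had the lowest median. Of 24 tested genes 15 fell and 1 rose (median -0.59), and 11 fell and 3 rose after centring. sma-10, a positive regulator of the body-size branch, read 62.55, 59.41 and 46.87 in aex-3 SUMO, against 169.7, 128.9 and 188.1 in N2, a change of -1.49 ± 0.17 (limma adjusted p = 4.57e-05). daf-14, a Smad of the dauer branch, changed by -1.32 ± 0.19. The higher member was tsp-12, a tetraspanin, at 0.97 ± 0.13. Insulin receptor and stress kinase genes gave 16 lower and 7 higher of 36, even after centring at 10 lower and 11 higher. tir-1, the worm SARM, and aakb-1, an AMP-activated kinase subunit, changed by -1.1 and -1.08. Wnt genes gave 11 higher and 11 lower of 25, against 13 higher and 5 lower after centring, among them mom-2, a Wnt ligand, at 1.09 and pry-1, the worm Axin, at -0.91.

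All tested genes, list members included, were also grouped into 147 classes by the first part of their symbols, each with at least 8 tested genes. Classes and lists therefore share genes. For example npp-2, rsp-1, him-14, sma-10 and wrt-4 count in a list above and again in a class here. The lowest medians were those of bus, lips, grl, math, dbd, wrt, sma, ptr, his and nas. All 10 tested bus genes (of 14 on the array), named for resistance to bacterial swelling and many of them acting on surface glycans, fell, with a median of -1.18. bus-5 read 79.81, 89.39 and 69.85 in aex-3 SUMO, against 237.3, 256.7 and 223.1 in N2. The hedgehog-related grl genes fell in 10 of 14 tested cases (median -1.04, 30 on the array) and wrt genes in 6 of 8 (-0.87), the patched-related ptr genes in 11 of 19 (-0.69), the astacin protease genes nas in 10 of 15 (-0.67, 6 lower after centring) and the small-body sma genes in 7 of 8 (-0.70). grl-21 read 279.3, 321.9 and 268 in aex-3 SUMO, against 722.1, 713.1 and 767.8 in N2. The lipase-related lips genes fell in 7 of 8 cases (-1.05) and the dbd genes in 10 of 11 (-0.90).

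Histone genes, class his, fell in 19 of 24 cases and rose in 2 (median -0.67), although genes of DNA replication rose. his-39 read 85.04, 95.51 and 91.64 in aex-3 SUMO, against 322.3, 340 and 398.9 in N2, a change of -1.94 ± 0.12. The probe sets of his-39 and of the other histone genes named here are of the type that can share signal between near-identical copies, so single copies are uncertain.

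The highest medians were those of ints, bath, rsp, npp, hmg, him, ddx, rnp, cec and prp. The Integrator genes ints rose in 6 of 8 cases (median 0.70), the SR splicing factors rsp in 8 of 8 (0.68), nucleoporins npp in 22 of 25 (0.62), him genes, named for meiotic loss of the X chromosome, in 7 of 10 (0.57), and the helicases ddx in 6 of 9 (0.57). The chromatin classes hmg and cec each had 5 higher and 1 lower of 8. rsp-1 read 679.9, 660 and 704.1 in aex-3 SUMO, against 387.7, 406.3 and 324.9 in N2. Both MATH-domain classes stood at an end of the ranking, in opposite directions. Of 17 tested math genes (47 on the array) 11 fell and 0 rose (-0.93, 0 higher at an unadjusted p of 0.05), while of 22 tested bath genes (38 on the array), whose products add a BTB domain that binds cullin ligases, 13 rose and 4 fell (0.69). bath-1 read 57.68, 56.14 and 61.18 in aex-3 SUMO, against 14.27, 22.46 and 15.45 in N2. math-24 read 9.613, 9.072 and 10.21 in aex-3 SUMO, against 41.86, 28.87 and 40.58 in N2.

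**Figure D4:**
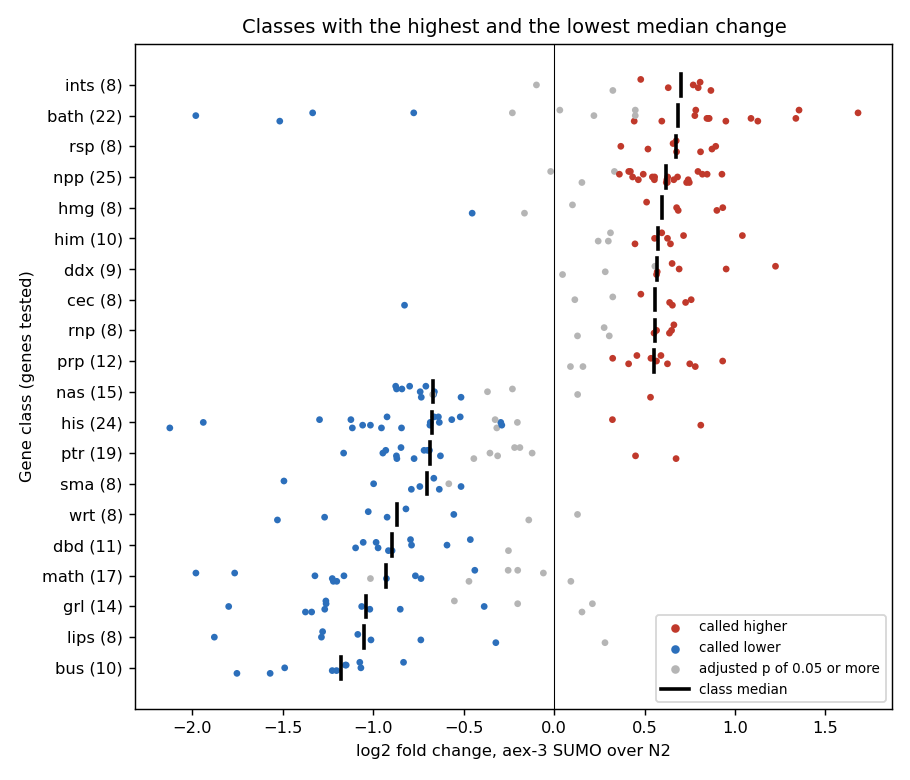
Log2 fold change of each tested gene (points, red called higher, blue called lower, grey neither) in the 10 gene classes with the highest and the 10 with the lowest median (black ticks), with the number of genes in brackets. Medians run from 0.70 for ints to -1.18 for bus; bath and math point in opposite directions.

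Genes on the X chromosome behaved unlike those on the autosomes. Of 1467 tested X-linked genes 8.04% rose and 39% fell (median -0.32), against 27.3% and 22.4% of 9270 autosomal genes (median 0.02). Among autosomes the share that rose ran from 21.5% on V to 33% on I. X-linked genes were on the whole dimmer, with 188 of them in signal decile 1 and 66 in decile 8, but the gap was present within deciles. In decile 8, 10.6% of the X-linked genes rose and 50% fell, against 48.3% and 12.9% of 1010 autosomal genes. In the 3 dimmest deciles the shares on X and autosomes lay close together. Genes in none of the 44 lists gave the same picture, with 8.22% of 1278 higher and 39.2% lower on X, against 25.3% and 23.4% of 7955 on autosomes.

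As background, the worm's X chromosome carries few of the genes used in the germ line, and both X chromosomes are held down by dosage compensation in hermaphrodite somatic cells. Of all 10768 tested genes 1467 lay on X. Among the germline lists it was 1 of 56 meiosis genes, 3 of 58 germline RNA genes, 4 of 32 oocyte and eggshell genes and 0 of 61 sperm genes. For intestine it was 12 of 44, for hypodermis 13 of 48 and for body wall muscle, whose centred median was -0.04, 17 of 53. It was 6 of 11 for touch receptor neurons, 7 of 40 for pan-neuronal genes and 3 of 19 for the excretory system. After centring, 14.1% of X-linked genes rose and 23.8% fell, against 40.1% and 13.6% of autosomal genes. How far the X pattern follows from the tissues whose transcripts changed was not tested.

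**Figure D5:**
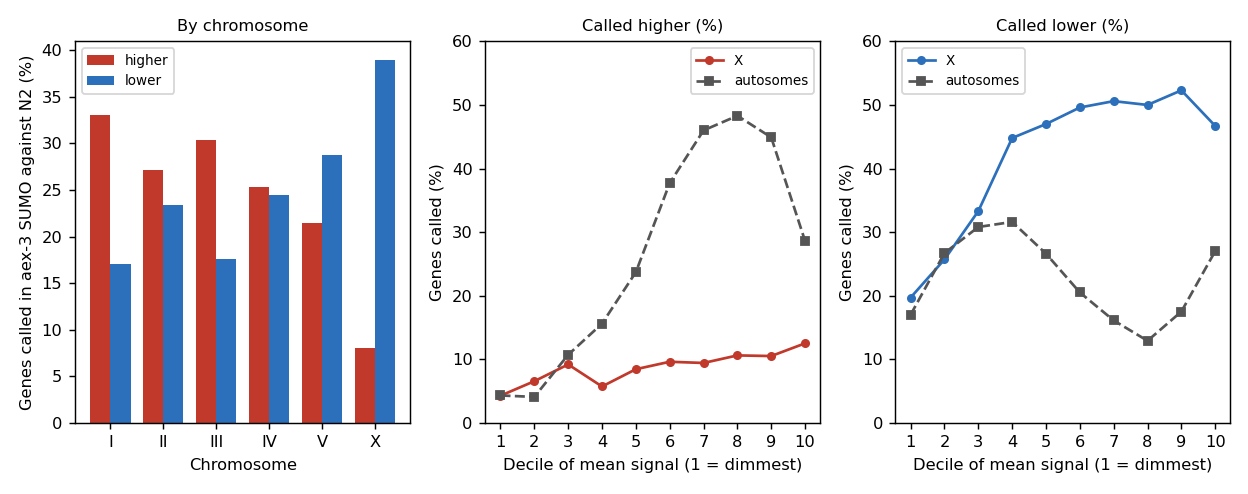
Share of tested genes called higher (red) and lower (blue) in aex-3 SUMO against N2 by chromosome (left, percent), and the shares called higher (middle) and lower (right) for X and autosomes within each decile of mean signal. X has 8.04% higher and 39% lower; from decile 4 upward the X points lie below the autosomes for higher and above them for lower.

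Some called genes lay next to each other. Runs of at least 4 consecutive measured genes called in one direction numbered 86 for genes that rose, with up to 10 genes, and 72 for genes that fell, with up to 8. They held 409 of the 2653 genes that rose and 334 of the 2655 that fell. With 24.6% of all genes called higher and 24.7% lower, how many such runs chance alone gives was not tested. In 75 of the higher and 54 of the lower runs at least 1 gene was read by a probe set of the type that can share signal between similar transcripts. None of the runs of higher genes had a median change of at least 2-fold, whereas 19 of the lower runs did. The lowest was a group on chromosome II with K05F6.10, math-38, bath-46, bath-26 and bath-47, where the median was -1.98. In it math-38 read 34.4, 41.55 and 22.19 in aex-3 SUMO, against 125.6, 90.74 and 192.2 in N2. This local group holds 3 of the 4 bath genes that fell.

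A second group on chromosome II held 4 K01A2 genes with far-7 and mps-2, a potassium channel accessory subunit, with a median of -1.70. On chromosome V, clec-227, clec-56 and clec-54, of the C-type lectins, fell with 2 neighbours that carry no gene name (median -1.42), and 4 nuclear hormone receptor genes, nhr-103, nhr-18, nhr-134 and nhr-96, fell beside the cytochrome P450 gene cyp-33C4 (-1.34). The histone cluster his-1 to his-4, coding for H4, H3, H2A and H2B, fell as a unit (-1.13). Runs also held developmental timing genes. lin-42, the worm Period homologue, changed by -1.34 ± 0.21 and hbl-1, a Hunchback-type factor that times early larval fates, by -0.89 ± 0.18. Another run, on chromosome IV, held svct-1, with 4.014, 9.32 and 1.66 in aex-3 SUMO, against 76.43, 46.68 and 120.8 in N2. Its aex-3 SUMO values lie near the bottom of the scale, so the fitted change of -3.72 ± 0.45 depends on the pseudocount.

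The values were also compared directly with those of the second transgenic line, whose transgene uses a muscle promoter. Between aex-3 SUMO and myo-4 SUMO 34 of 14204 probe sets (0.239%) passed by limma. The SE of this contrast also draws on the N2 arrays, whose median SD was larger (0.231, against 0.127 in aex-3 SUMO). This can lower the number that pass. Of the 318 genes singled out by the rule for named genes, 5 were among them. T13F3.6 and dod-3 were higher in aex-3 SUMO than in myo-4 SUMO, by 0.77 and 1.66. T04D3.5, col-14 and cTel55X.1 were lower in aex-3 SUMO, with changes of -0.74, -0.74 and -2.64. For smo-1 the difference between the lines was 0.09 ± 0.13 (limma adjusted p = 0.9). None of the 1508 tested list genes, the neuronal and muscle genes included, passed between the lines by limma, with 106 at an unadjusted p of 0.05, against 941 of all 10768 genes. A p that misses the threshold does not show equal levels in the 2 lines. On the first principal component (61.6% of the variance) the aex-3 SUMO arrays lay at 19.81 to 31.6. The myo-4 SUMO arrays lay at 19.1 to 27.58 and the N2 arrays at -61.8 to -39.16. Mean signals in aex-3 SUMO, myo-4 SUMO and N2 were 1140, 1150 and 495 for rme-2. For ifb-2 they were 1090, 1060 and 2460, and for egl-3 164, 182 and 378. Apart from those of the 5 genes above, the changes of named genes against N2 were not shown to differ between the lines.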

How the data were processed

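The deposited table holds linear signal intensity for 22625 probe sets on 9 arrays, made by the authors with GCOS (version not given), per the submitters' processing notes. Background and scaling steps are not given in the sources used here, and the values were used as deposited. After removal of 77 control probe sets, log2(signal + 1.623) was used. The pseudocount, the median of the arrays' 10th percentiles, understates changes of dim genes. A probe set was tested if it exceeded its array's 40th percentile on 3 or more arrays, which left 14204. A limma model (limma 3.58.1, R 4.3.3; lmFit, eBayes with an intensity trend) was fitted to all 9 arrays by group, with 6 residual and 6.88 prior degrees of freedom. Tests were two-sided, adjusted by Benjamini-Hochberg over all probe sets kept, at 0.05.

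Gene names came from the platform's probe table and a WBcel235 gene table, used for names, chromosomes and gene order only. Of the probe sets kept, 13412 matched 1 gene, 510 several and 282 none. Only the first kind is named, and each gene in a list, class or chromosome is represented by its brightest probe set. Of 2246 genes with several tested probe sets, 1443 had at least 1 called, 735 had all called one way and 8 had calls in both directions.

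Members, the 44 lists (21 of tissues, 23 of processes), and tests were chosen with earlier results of these data known, and lists are described by counts and medians without a test. Named genes included the 8 highest and 8 lowest changes among bright called genes. Bright meant a mean of at least 100 in both groups, and the groups also had to be free of overlap. Further named genes were the 6 smallest p in each direction, smo-1, aex-3 and unc-54. Each list gave up to 4 called members (2 where none was called), and each of the 10 highest and 10 lowest classes up to 3. Genes of runs of at least 4 called neighbours with a median of at least 2-fold were added. The text describes a selection of these 318. Fits were tested on simulated data. Alternatives were quantile normalization, median centring, filters at the 60th percentile or none, pseudocounts of 1 and 16, the 6 arrays alone, array weights, the replicate number as a block, each replicate left out, and the median probe set for lists.

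The same replicate number in different groups did not mark pairs: the correlations of their deviations from the group means were 0.0053, -0.0278 and -0.194. The values of 1 gene are not reported here.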

Additional observations from a re-analysis of the deposited data

How the results depend on the processing

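Over all settings tried, 2619 to 5129 probe sets passed as higher in aex-3 SUMO and 2049 to 3618 as lower, against 3423 and 3410 as reported. The lowest count of lower probe sets, 2049, came from centring each array on its median, which raises every change by the same amount and leaves 5129 higher. Quantile normalization gave 3444 higher and 2758 lower. Leaving out 1 array at a time gave 2619 to 3758 higher and 2595 to 3618 lower. With the replicate number as a block, 3249 were higher and 3215 lower, and no pairing is implied by the labels. Of 318 named genes, 24 lost their call under median centring, 15 under quantile normalization, 2 with the block, and 5 to 18 with 1 array left out. The change of aex-3 ran from -1.0 without N2 replicate 1 to 0.61 without N2 replicate 2, the only change of sign of a named gene that passed in some setting. Of the list medians, those of sperm, glycolysis and EGF signalling changed sign under both median centring and quantile normalization, and those of the respiratory chain and fatty acid oxidation under median centring. X-linked genes had fewer higher and more lower calls than autosomal genes in every setting run (chosen after seeing the data), with 4.0% to 14.1% higher and 22.5% to 49.8% lower on X.

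Dim genes limit the comparison, since no detection call is at hand and many neuron class and cilium genes fell below the filter. N2 replicate 1 widened the spread of its group, and the offset of the array medians between the groups cannot be told apart from the comparison.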

Other observations

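In the somatic gonad and vulva list 4 genes rose and 5 fell of 20, shares near those of all genes. The germ cell innexins inx-14 and inx-22, gap junction proteins that couple oocytes to the sheath, rose by 1.0 ± 0.14 and 0.79 ± 0.11, whereas sem-4, a zinc finger factor of several somatic lineages, and unc-53, a navigator of cell migration, changed by -1.33 ± 0.22 and -0.82 ± 0.15. In the metal handling list 7 of 29 genes rose and 7 fell, against 24.6% and 24.7% of all genes. The zinc transporter genes zipt-7.1 and zipt-1 were at 1.12 ± 0.13 and 1.06 ± 0.13, and zipt-2.1 and cdf-2 at -0.92 ± 0.15 and -1.3 ± 0.21. zipt-7.1 read 140.5, 137.6 and 147 in aex-3 SUMO, against 65.63, 75.64 and 53.21 in N2. In EGF and Ras signalling, lin-1, an ETS repressor of vulval fate, read 64.9, 73.37 and 42.57 in aex-3 SUMO, against 151.1, 131 and 150.7 in N2, and the phosphatase ptp-2, which also acts in oocytes, rose by 0.93 ± 0.13. Notch genes gave 7 higher (35%) and 3 lower (15%) of 20. Among them were the gamma-secretase subunit pen-2 at 0.66 ± 0.15 and the secreted co-ligand osm-7 at -0.84 ± 0.14. All these changes passed an adjusted p of 0.05 in limma.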
